A study of Mus musculus with 16 samples.

Results

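The 10 libraries compared here were chosen by their content of Epcam, an epithelial cell adhesion molecule. The 5 libraries with the highest Epcam level (Epcam-high), in counts per 1000000 of the column total (CPM), were set against the 5 with the lowest (Epcam-low), out of 16 RNA-seq libraries of mouse inguinal white adipose tissue (iWAT). All 16 came from C57BL/6 mice labelled female and 90 days of age, in 4 genotypes of 4 libraries each. WT mice carried neither change, Lepob/+ mice carried 1 ob copy of the leptin gene Lep, SOD1-G93A mice carried a transgene for mutant human SOD1 used as a model of amyotrophic lateral sclerosis, and SOD1-G93A Lepob/+ mice, bred from Lepob/+ females and SOD1-G93A males, carried both. The groups crossed genotype: the Epcam-high group held 2 WT and 3 SOD1-G93A Lepob/+ libraries, and the Epcam-low group held 1 WT, 1 Lepob/+, 2 SOD1-G93A and 1 SOD1-G93A Lepob/+ library. The 6 libraries between them were 1 WT, 3 Lepob/+ and 2 SOD1-G93A. Neither Lepob/+ nor SOD1-G93A gave an Epcam-high library. The 1 SOD1-G93A Lepob/+ library outside the Epcam-high group, replicate 3, had no Xist count and 1756 counts over Y-linked genes. Its label was female. Within that genotype, apparent sex and Epcam group therefore cannot be told apart.

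The inguinal fat pad of the female mouse is also the bed of a mammary gland, so a piece of this depot can hold mammary ducts as well as fat cells. A duct has an inner luminal layer, marked by Epcam and the simple keratins Krt8, Krt18 and Krt19, and an outer basal or myoepithelial layer, marked by Krt5, Krt14 and contractile proteins. Luminal cells include hormone-sensing cells, which carry receptors for oestrogen, progesterone and prolactin, and secretory progenitors, which give rise to the milk-producing cells. The same fat pad holds the inguinal lymph node and lies close to skin and muscle.

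Epcam lies on the plus strand of chromosome 17 from 87635979 to 87651129 in the GRCm38 (mm10) mouse genome. Cldn4 and Spint1 are 2 further genes that were higher in every Epcam-high library. Both encode parts of the same epithelial surface as Epcam and moved with it. The stretches before the starts of these 3 genes are shown as examples. They come from RefSeq on GRCm38.p6, each 250 bases long and ending at the base before the start, at chr17:87635729-87635978 (plus strand), chr5:134946935-134947184 (minus strand) and chr2:119237110-119237359 (plus strand). Capitals mark ACCGGT, the core bound by Grainyhead factors such as Grhl2, and the E-box CACCTG or its reverse complement CAGGTG, which is bound by repressors of the epithelial state such as Snai1 and Zeb1.
Epcam: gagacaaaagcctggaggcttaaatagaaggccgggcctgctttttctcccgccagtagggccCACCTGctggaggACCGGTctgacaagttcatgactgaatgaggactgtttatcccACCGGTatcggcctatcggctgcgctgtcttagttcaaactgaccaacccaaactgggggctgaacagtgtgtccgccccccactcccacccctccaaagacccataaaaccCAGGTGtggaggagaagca
Cldn4: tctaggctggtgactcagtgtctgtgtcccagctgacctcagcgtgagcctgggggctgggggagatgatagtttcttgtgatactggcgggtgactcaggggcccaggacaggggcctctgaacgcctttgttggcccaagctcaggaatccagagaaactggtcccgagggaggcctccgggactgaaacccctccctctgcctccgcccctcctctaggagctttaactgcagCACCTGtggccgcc
Spint1: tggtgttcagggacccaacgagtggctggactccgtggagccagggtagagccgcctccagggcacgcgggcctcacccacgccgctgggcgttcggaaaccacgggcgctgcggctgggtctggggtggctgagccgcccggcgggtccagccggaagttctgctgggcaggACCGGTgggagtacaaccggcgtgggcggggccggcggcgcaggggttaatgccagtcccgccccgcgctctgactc

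The Epcam stretch held 2 Grainyhead cores and 2 E-boxes, that of Cldn4 held 1 E-box and that of Spint1 held 1 Grainyhead core. The corresponding stretches of Krt8 and Krt18 held 1 E-box each. Both strands were searched, and the motifs do not overlap each other. Of the 32851 stretches of this length searched, 1.86% held the Grainyhead core and 17.2% held the E-box. A promoter was matched for 227 of the 323 genes described next, under 80% of them. A share over those genes is therefore void and is not given. Of the 227 matched stretches, 4 held the Grainyhead core and 90 held the E-box. Of the 40 epithelial genes among the 323, 25 were matched. Of these 25, 2 held the core and 12 held the E-box. Epcam and Spint1 are the 2 with the core, so the printed stretches do not represent that group. A match describes letters in a window and does not show binding.

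Epcam was 159.2, 139.6, 121.2, 118.0 and 117.9 CPM of the column total in SOD1-G93A Lepob/+ replicates 4, 2 and 1 and WT replicates 1 and 2, which form the Epcam-high group. It was 65.9, 60.5, 57.9, 54.6 and 42.9 in SOD1-G93A replicates 3 and 2, SOD1-G93A Lepob/+ replicate 3, WT replicate 3 and Lepob/+ replicate 4, which form the Epcam-low group. The nearest libraries outside were SOD1-G93A replicate 1 at 104.3, below the last Epcam-high library, and WT replicate 4 at 71.9, above the first Epcam-low library. These values chose the groups and are a description. All later values are CPM on library sizes scaled by the trimmed mean of M values (TMM), on which Epcam averaged 127 ± 24.3 against 61.2 ± 6.21 CPM (SD, n = 5 each), 2.06-fold apart. The same 10 libraries would have been chosen on that scale. Because these were whole pieces of tissue, more epithelial cells and more RNA per epithelial cell cannot be told apart.

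The libraries held 36795376 to 61886313 counts each. Several stood apart in ways that touch both groups. Transcripts of lymph node stroma summed to 444 CPM or more in 6 libraries and to 49.6 or less in the other 10. The 6 were WT replicates 1 and 2 in the Epcam-high group, SOD1-G93A replicate 2 in the Epcam-low group, and SOD1-G93A replicates 1 and 4 and Lepob/+ replicate 3 between. Lepob/+ replicate 4 and WT replicate 3, both Epcam-low, were rich in skeletal muscle transcripts, and the TMM factor of Lepob/+ replicate 4 was 0.664 against 0.936 to 1.11 in the other 15. SOD1-G93A Lepob/+ replicate 3, also Epcam-low, had no Xist count and 1756 counts over Y-linked genes, against its label of female.

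**Figure D1:**
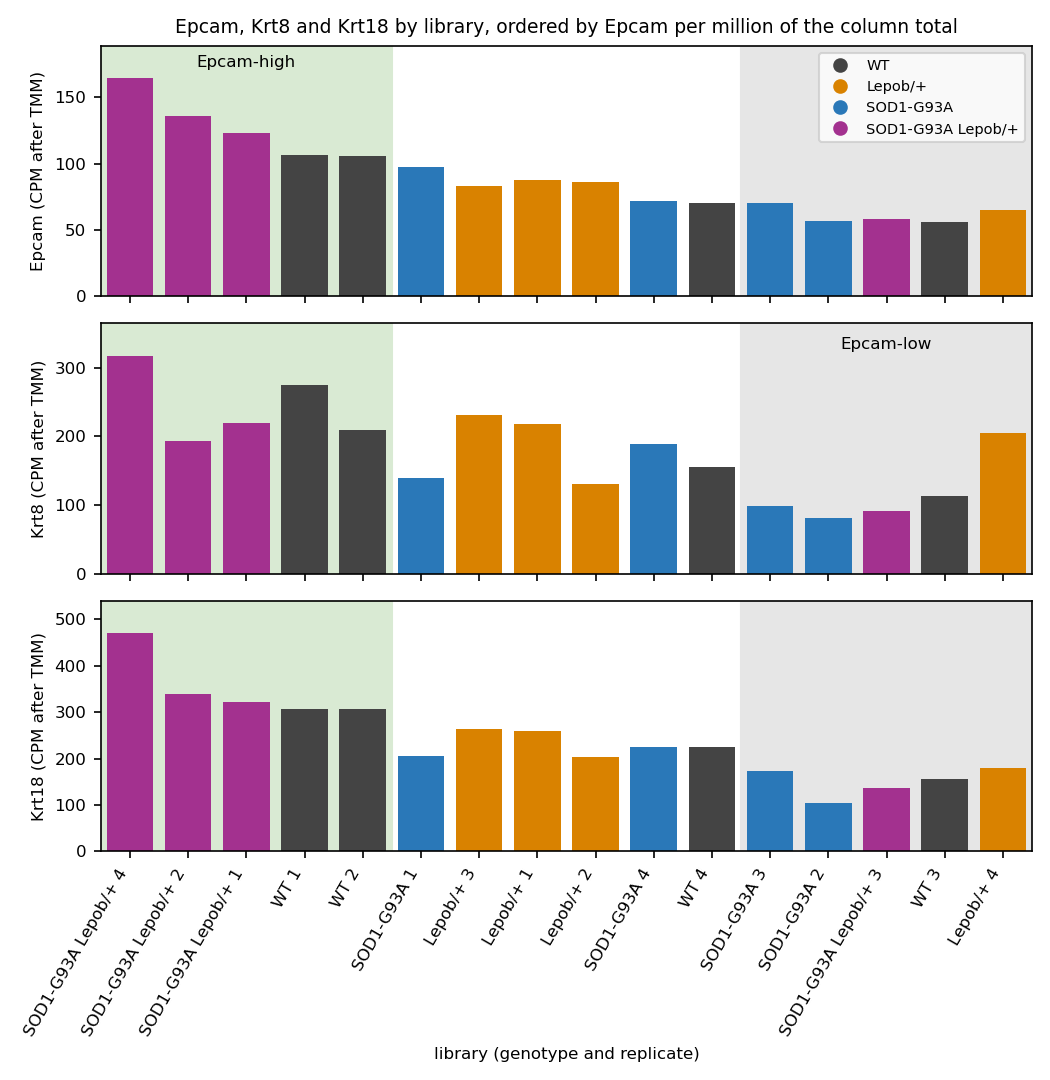
Bars give CPM after TMM of Epcam, Krt8 and Krt18 in each of the 16 libraries, ordered by Epcam and coloured by genotype, with the Epcam-high group shaded green and the Epcam-low group grey. Krt18 is above 300 CPM in the 5 Epcam-high libraries and at or below 180 CPM in the 5 Epcam-low ones, whereas Krt8 of Lepob/+ replicate 4 reaches 204 CPM, inside the Epcam-high range.

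Both keratins that mark luminal cells were higher on average in the Epcam-high libraries, and Krt18 separated the 5 from the 5. Krt18 was 470, 340, 322, 308 and 307 CPM in the Epcam-high libraries, in the order given above, and 174, 105, 136, 157 and 180 CPM in the Epcam-low libraries. The 5 high values all lay above the 5 low ones, and the difference of the mean log2 values was 1.22 (SE 0.18, n = 5 each). With 6 libraries against 6, Krt18 overlapped. Krt8, which pairs with Krt18 in filaments, was 317, 193, 220, 275 and 209 CPM in the Epcam-high libraries. It was 99.1, 81.8, 91.6, 113 and 204 CPM in the Epcam-low libraries. The groups overlapped in Krt8 through the last of these, Lepob/+ replicate 4, with a difference of 1.10 (SE 0.27), which was 1.32 without that library. On CPM of the column total, the scale that chose the groups, Krt8 did not overlap. The overlap followed the TMM scaling of that library. Both genes lie on chromosome 15, Krt8 from 101996698 to 102004482 on the minus strand and Krt18 from 102028180 to 102032027 on the plus strand.

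The 6 libraries between the groups were not used in the comparison above. Their Epcam values placed them there, so the choice narrowed their range of Epcam, but it did not use their keratin values. In them Krt8 had Pearson's r = -0.19 and Spearman's rho = -0.20 with Epcam (exact two-sided permutation p = 0.665 and 0.714, n = 6). Krt18 had r = -0.13 and rho = -0.20 (exact p = 0.796 and 0.714). The basal keratins Krt14 (r = -0.0028, rho = 0.20) and Krt5 (r = -0.091, rho = 0.086) gave exact permutation p = 0.989 and 0.893 for r and 0.714 and 0.919 for rho. Over the 4 genes the adjusted p was 0.989 for r and 0.919 for rho. Without the 2 libraries farthest from the median in Epcam, r was -0.54 and -0.59 for Krt8 and Krt18 and 0.28 and 0.29 for Krt14 and Krt5. No relation of these keratins to Epcam was therefore detectable within the narrow middle range of 70.6 to 97.6 CPM of Epcam, and 3 of the 6 were rich in lymph node transcripts, too few for a value within each kind.

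Of 19736 genes with enough counts, 323 were higher in every Epcam-high than in any Epcam-low library (1.64%) and 104 were lower in every one (0.527%). These shares are the background for the gene groups below, since the rule fixed the groups and no test of the split is given. As 3 of the 5 Epcam-high and 1 of the 5 Epcam-low libraries were SOD1-G93A Lepob/+, Epcam content and genotype cannot be wholly told apart in them. The median difference over all genes was -0.01 on the log2 scale, over the 323 higher genes it was 1.08, and 197 of these lay above 1. The 104 lower genes had smaller differences, with a median size of 0.45 and 22 of them beyond -1. Among the 5 against 5 most extreme of the 10 libraries poor in lymph node transcripts, 212 genes were higher and 157 lower, but only 71 of the 323 and 20 of the 104 were among them. Lepob/+ replicates 1 and 2 there replaced WT replicates 1 and 2, and WT replicate 4 replaced SOD1-G93A replicate 2. The nearest Epcam values of the groups were then 86.9 and 71.9 CPM of the column total, against 117.9 and 65.9 in the main groups. The part of this narrower gap in these counts was not tested. In the main groups without SOD1-G93A replicate 2, 707 genes were higher and 491 lower. Without any other single library the counts were 360 to 458 and 138 to 196, part of each rise coming from the smaller number of libraries to separate. On CPM of the column total, with no TMM scaling, 513 were higher and 25 lower. Of the 323 higher genes 313 were among these, but of the 104 lower genes only 18. In the 6 middle libraries, 211 of the 322 higher genes other than Epcam (65.5%) had a positive rho with Epcam, against 49.8% of all genes, and 68 of the 104 lower genes (65.4%) had a negative one, against 50.2%.

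Epithelial genes made up a visible share of the higher set. Of 131 genes on 8 lists of mammary epithelial genes, 121 were measured, 107 had a positive difference, 40 were higher in every Epcam-high library (33.1%, against 1.64% of all genes) and 0 were lower in every one. These include Epcam, whose separation was fixed by the choice of libraries, and without it 39 of 120 were higher (32.5%). The count rested on which libraries were set against each other. It was 12 of 121, 8 of them among the 40, when only libraries poor in lymph node transcripts were compared (1.07% of all genes), and Krt18 did not separate there. It was 24 of 121 with 6 libraries against 6 (0.775% of all genes) and 57 of 121 on CPM of the column total (2.60%). It was 61 of 121 without Lepob/+ replicate 4 (2.32% of all genes) and 64 of 121 without both muscle-rich libraries (3.19%), where Krt8 separated as well. Fewer libraries make it easier for groups not to overlap.

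**Figure D2:**
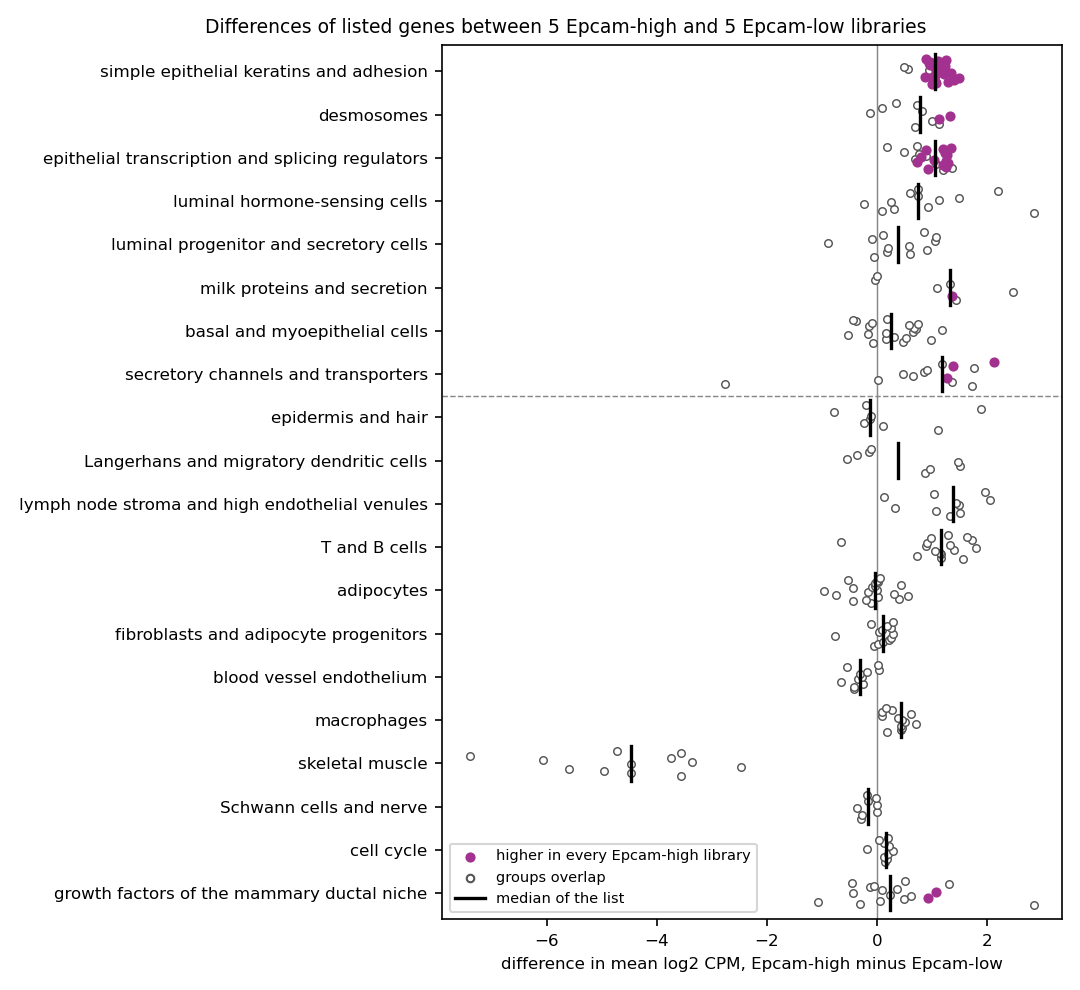
Each point is a gene, placed by its difference in mean log2 CPM between the 5 Epcam-high and 5 Epcam-low libraries. Filled points were higher in every Epcam-high library, open points overlapped, bars are list medians, and the dashed line divides the 8 mammary epithelial lists above from the other 12. The filled points gather in the keratin and adhesion list and in the list of regulators, while the 12 muscle genes all lie below 0.

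The keratins and adhesion proteins that hold a simple epithelium together were the most complete group. Besides Epcam, which chose the groups, 25 listed genes were measured. All 25 had a positive difference, with a median of 1.07, and 20 were higher in every Epcam-high library. Their summed level was 1613 to 2439 CPM in the Epcam-high and 722 to 950.3 CPM in the Epcam-low libraries. They included Krt7 and Krt19, E-cadherin (Cdh1), the tight junction claudins Cldn3, Cldn4, Cldn7 and Cldn8, occludin (Ocln), cingulin (Cgn) and Crb3, a polarity protein of the apical surface. They also included the membrane protease genes St14 and Prss8 and their inhibitors Spint1 and Spint2.

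Krt19, the smallest of the luminal keratins, was 571, 290, 347, 359 and 278 CPM in the Epcam-high libraries and 128, 117, 137, 135 and 187 CPM in the Epcam-low libraries. The difference was 1.36 (SE 0.22), and SOD1-G93A Lepob/+ replicate 4, the library highest in Epcam, was also the highest here. Cldn4, which seals the space between neighbouring epithelial cells, was 131, 120, 106, 101 and 101 CPM against 51.6, 28.8, 39.1, 63.9 and 34.0 CPM. Its difference was 1.42 (SE 0.22), beside 1.04 (SE 0.13) for Epcam itself. Cdh1, the adhesion molecule of adherens junctions, was 91.1 to 141 against 34.5 to 58.6 CPM, and Cldn8 was 8.26 to 21.9 against 3.05 to 6.36 CPM. Of 10 measured desmosome genes, which anchor keratin filaments to the cell edge, only Dsp (desmoplakin, 20.1 to 35.2 against 10.1 to 13.9 CPM) and Evpl (envoplakin, 16.4 to 20.03 against 3.82 to 10.2 CPM) separated the groups, and the list median was 0.78.

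The regulators of epithelial identity separated as well. Of 22 genes for epithelial transcription and splicing factors, all had a positive difference, 13 were higher in every Epcam-high library and the median was 1.07. Grhl2, a Grainyhead factor that maintains epithelial junction genes, was 13.2, 14.7, 12.97, 9.95 and 12.3 CPM in the Epcam-high libraries and 6.08, 3.77, 5.13, 6.38 and 4.96 CPM in the Epcam-low libraries (difference 1.27, SE 0.16). Gata3, needed for the luminal fate, was 80.7 to 120 against 31.0 to 45.9 CPM, and Esrp1, which sets epithelial splicing, was 15.001 to 27.5 against 6.21 to 9.56 CPM. Ovol2, a repressor of mesenchymal genes, was 1.07 to 1.66 against 0.413 to 0.691 CPM. Elf5, a factor of secretory progenitors, had a difference of 1.37 (SE 0.48) but overlapped, because Lepob/+ replicate 4 reached 20.8 CPM where the other 4 Epcam-low libraries were at 4.29 to 8.34 CPM.

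The lists that tell luminal cell kinds apart were less uniform. None of the 12 hormone-sensing genes separated the groups, although 11 had a positive difference and the median was 0.75. Prlr, the prolactin receptor, was 282, 184, 59.0, 186 and 149 CPM in the Epcam-high and 135, 13.5, 100.2, 42.4 and 61.9 CPM in the Epcam-low libraries. Pgr, the progesterone receptor, was 8.49 to 70.8 against 4.52 to 20.4 CPM, and Areg, the growth factor that carries the oestrogen signal in ducts, was 17.6 to 153 against 0.567 to 34.7 CPM. The ranges of these genes were wide within each group. Esr1, the oestrogen receptor, was not ordered by Epcam. It was 81.3 CPM in SOD1-G93A Lepob/+ replicate 2 and 7.25 CPM in replicate 4 of that genotype, both Epcam-high.

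None of the 12 luminal progenitor and secretory genes separated the groups (median 0.39). Kit, the receptor used to isolate luminal progenitors, was 45.8 to 81.1 against 33.8 to 55.3 CPM, and Lcn2 was 30.6 to 71.1 against 9.93 to 44.5 CPM. Only 7 of 14 milk genes were measured, with no count of Wap or Pip in any of the 16 libraries, and Csn2 was at most 0.226 CPM in either group. Among the 7, only Csn3 (kappa-casein) separated, at 86.7, 17.2, 29.7, 33.6 and 18.1 CPM against 9.36, 8.09, 14.6, 14.9 and 13.8 CPM. Glycam1, which is also made by high endothelial venules, was present in the libraries rich in lymph node transcripts. It was 362 and 203 CPM in WT replicates 1 and 2, 575 CPM in SOD1-G93A replicate 2 and 0 in the other 7 libraries of the 2 groups.

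Genes of the basal layer overlapped throughout. None of the 20 measured basal and myoepithelial genes separated the groups, 13 had a positive difference and the median was 0.25. Krt5 was 19.6, 16.4, 18.9, 34.9 and 21.7 CPM in the Epcam-high libraries and 11.6, 12.1, 7.76, 15.9 and 26.05 CPM in the Epcam-low ones, a difference of 0.67 (SE 0.34). Krt14 was 12.9 to 23.0 against 7.82 to 16.5 CPM (0.66, SE 0.24). Acta2, the smooth muscle actin that myoepithelial cells share with vessel walls, was 116 to 135 against 68.6 to 240 CPM. Of 19 genes of epidermis and hair 8 were measured and none separated, and Krt2, Krt27 and Krt35 had no count in any library.

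Secretory channels and transporters included some of the larger differences. Of 13 measured genes 3 separated, with a list median of 1.20. Slc5a5, the sodium iodide symporter, was 173, 67.8, 155, 209 and 68.9 CPM in the Epcam-high libraries and 20.1, 10.8, 25.7, 54.5 and 52.1 CPM in the Epcam-low ones, a difference of 2.14 (SE 0.56). Slc12a2, a sodium, potassium and chloride cotransporter, was 617 to 1229 against 161 to 381 CPM, and Atp6v1b1, a proton pump subunit, was 29.2 to 46.8 against 7.43 to 24.3 CPM. Slc5a5 did not separate among the libraries poor in lymph node transcripts, with 6 libraries against 6, or with WT replicate 4 in place of the library with Y-linked counts, and in the 6 middle libraries its rho with Epcam was -0.89.

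Aqp5, a water channel of secretory epithelium, overlapped between the groups. It was 80.8, 31.9, 57.9, 54.9 and 29.8 CPM in the Epcam-high and 11.03, 10.9, 13.9, 79.4 and 15.9 CPM in the Epcam-low libraries. WT replicate 3, in the Epcam-low group, was thus nearly as high as the library with the most Epcam. Of 17 growth factors and receptors of the ductal niche, the receptors Fgfr2 (64.2 to 118 against 26.8 to 61.4 CPM) and Erbb3 (58.8 to 89.2 against 27.4 to 50.5 CPM) separated, and the list median was 0.24.

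**Figure D3:**
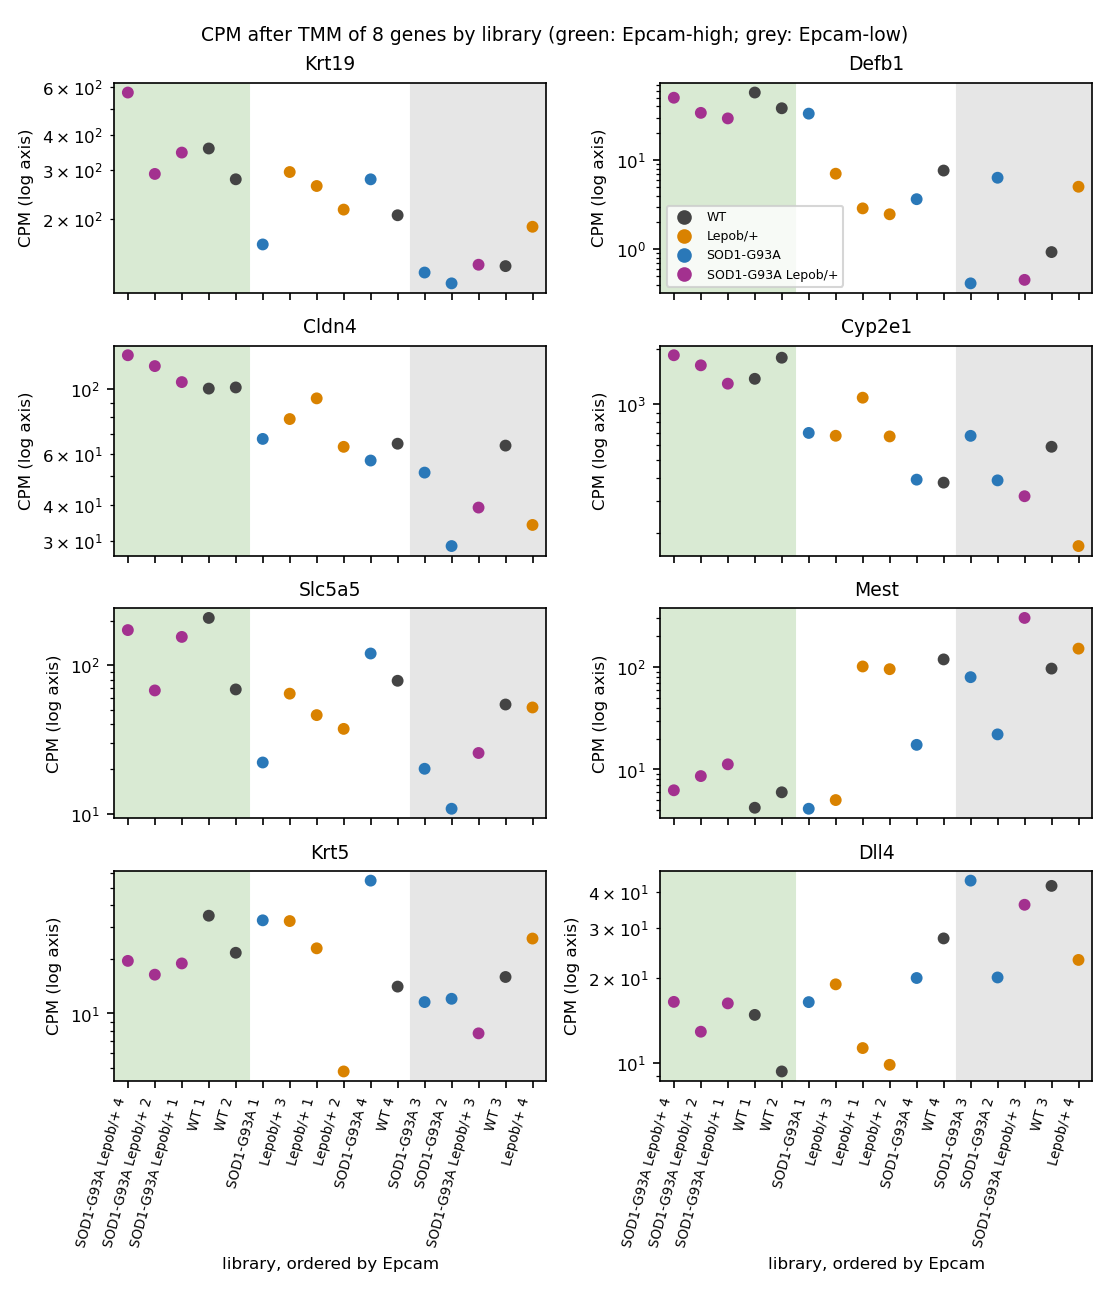
Points give CPM after TMM, on log axes, of 8 genes in the 16 libraries ordered by Epcam and coloured by genotype, with the Epcam-high group shaded green and the Epcam-low group grey. Krt5 overlaps between the groups, Defb1 spans 0.414 to 57.4 CPM, and Mest stands at 4.23 to 11.2 CPM in the Epcam-high and 21.999 to 301 CPM in the Epcam-low libraries.

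Most of the higher genes, 281 of 323, were on none of the 20 lists. Defb1, an antimicrobial defensin made by many epithelia, had the largest positive difference, 4.81 (SE 0.85). It was 50.2, 33.9, 29.4, 57.4 and 38.2 CPM in the Epcam-high libraries and 0.414, 6.35, 0.454, 0.930 and 5.03 CPM in the Epcam-low ones. In the 6 middle libraries it ranged from 2.47 to 33.3 CPM with a rho of -0.03 to Epcam, and it did not separate among the libraries poor in lymph node transcripts. The other genes with the largest differences were mostly scarce. Fam90a1a was 2.00 to 4.21 against 0 to 0.999 CPM, and Defb15, a second defensin, was 0.309 to 2.105 against 0 to 0.233 CPM. Defb1, Fam90a1a and Defb15, in that order the largest differences, all lie on chromosome 8 between 21776599 and 21964303. Whether they varied together as a locus was not tested. The transcription factor gene Pax1 was 0.266 to 1.399 against 0 to 0.0907 CPM, and Tmem215 was 0.375 to 0.846 against 0 to 0.259 CPM. The log2 differences of such genes depended on the count added before the logarithm, that of Pax1 being 3.54 with an added count of 1 and 2.21 with 5. Rnf207 (4.02 to 7.05 against 0.742 to 1.69 CPM) and Bglap3 (15.4 to 19.7 against 1.88 to 15.2 CPM) were better covered.

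Further secreted and metabolic genes were picked out after their values were seen. Wfdc2, a secreted protease inhibitor of ducts and glands, was 126 to 210 against 35.2 to 74.3 CPM, and Prom2, a protein of membrane protrusions in epithelia, was 35.5 to 206 against 14.1 to 33.5 CPM. Among genes for metabolism of foreign and fatty compounds, Cyp2e1 was 1844, 1626, 1293, 1374 and 1788 CPM in the Epcam-high libraries and 674, 386, 317, 588 and 170 CPM in the Epcam-low ones, a difference of 2.03 (SE 0.37). Cyp2f2 was 46.9 to 116 against 8.09 to 45.8 CPM, and Ephx2, an epoxide hydrolase, was 447 to 543 against 183 to 357 CPM. In the 6 middle libraries the rho with Epcam was 0.89 for Cyp2e1, 0.89 for Cyp2f2 and 0.94 for Ephx2, and 0.086 for Wfdc2 and -0.14 for Prom2. Slc27a1, a fatty acid transporter also made by fat cells, was 1181 to 1558 against 502 to 1123 CPM. Cyp2e1 was among the genes that did not separate within the libraries poor in lymph node transcripts, where the Epcam gap was also narrower.

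The 104 lower genes, of which only 18 also separated on CPM of the column total, were on none of the lists. Mest, an imprinted gene known in fat tissue as a marker of adipocyte enlargement, had the largest difference among them, -3.78 (SE 0.67). It was 6.26, 8.62, 11.2, 4.23 and 5.99 CPM in the Epcam-high libraries and 79.6, 21.999, 301, 96.5 and 151 CPM in the Epcam-low ones, with 4.14 to 119 CPM between. The 2 WT libraries of the Epcam-high group lay far from the Epcam-low WT library at 96.5 CPM, and the 3 SOD1-G93A Lepob/+ libraries lay far from the Epcam-low one of that genotype at 301 CPM. The library at 301 CPM was replicate 3, which had Y-linked counts, so apparent sex differed in that contrast as well. Mest was low in both kinds of Epcam-high library, but it too did not separate among the libraries poor in lymph node transcripts.

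Dll4, a Notch ligand of vessel sprouts, was 16.4, 12.9, 16.2, 14.8 and 9.31 CPM against 44.0, 20.01, 36.2, 42.2 and 23.1 CPM, a difference of -1.21 (SE 0.28), and it separated among the libraries poor in lymph node transcripts as well, but not on CPM of the column total. It was picked out after its values were seen, as were Fmr1, for an RNA-binding protein (67.6 to 129 against 133 to 386 CPM), and Nos2, the inducible nitric oxide synthase (4.10 to 6.27 against 6.46 to 16.7 CPM). Fmr1 did not separate among the libraries poor in lymph node transcripts. Of 11 vessel endothelium genes 9 had a negative difference (median -0.30), but none separated. Xirp1, Ctxn3 and Camk2a were, with Mest, the 4 largest differences among these 104 genes. They stood far highest in Lepob/+ replicate 4, at 190, 11.5 and 153 CPM against at most 3.95, 0.465 and 4.47 CPM in the other 4 Epcam-low libraries. Efcab8 (0.1999 to 0.578 against 1.26 to 2.20 CPM) and Evi2 (1.57 to 4.78 against 8.36 to 17.1 CPM) were low in all 5 Epcam-high libraries without such a library.

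**Figure D4:**
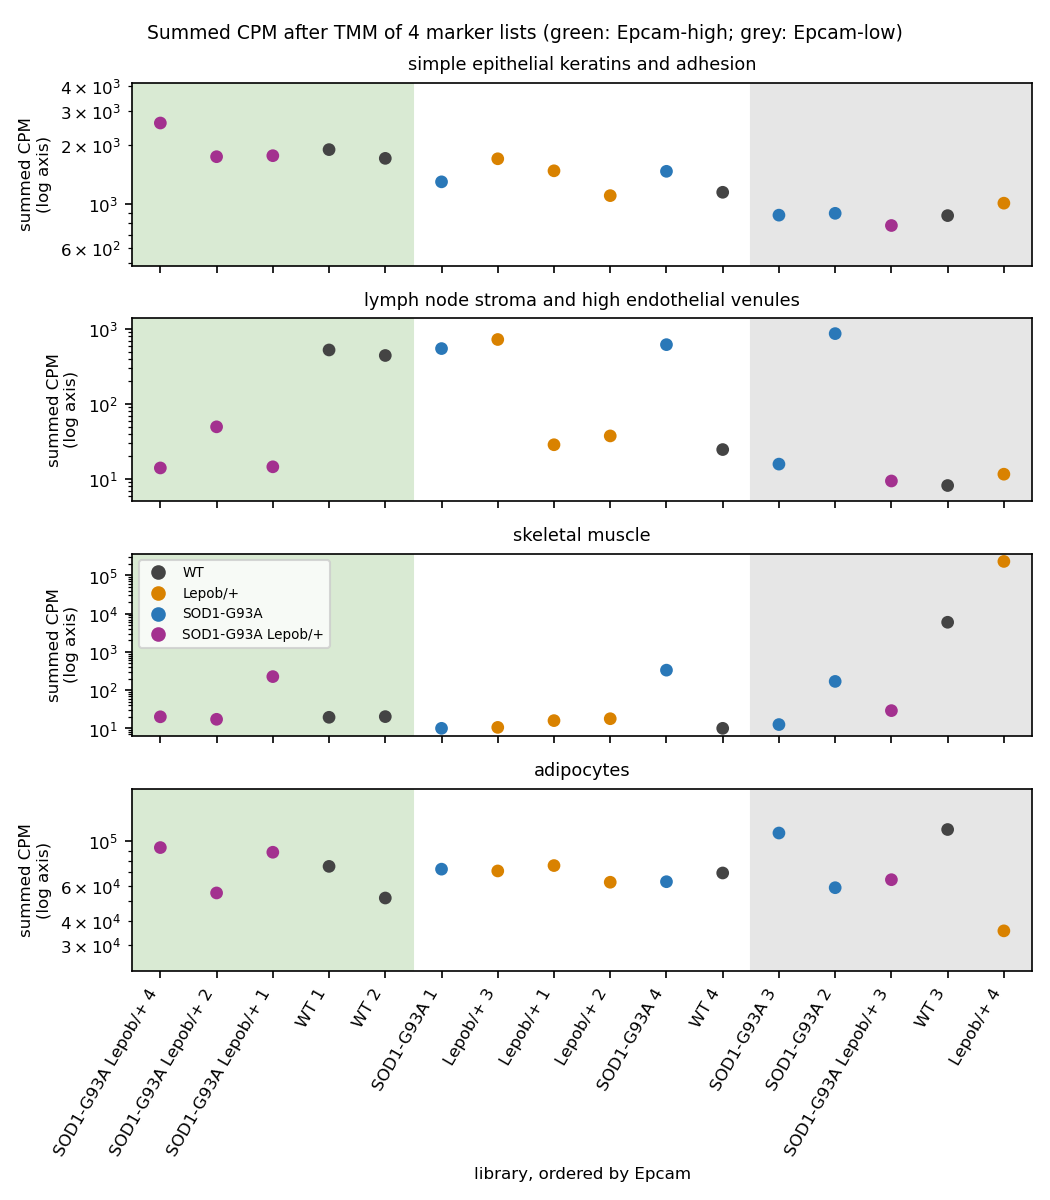
Points give the summed CPM after TMM, on log axes, of 4 marker lists in the 16 libraries ordered by Epcam and coloured by genotype, with Epcam-high shaded green and Epcam-low grey. The epithelial sum, Epcam included, is 1718 to 2603 CPM in the Epcam-high and 781 to 1015 CPM in the Epcam-low libraries, the lymph node sum is 444 CPM or more in 6 libraries, and the muscle sum is 5982 CPM in WT replicate 3 and 232906 CPM in Lepob/+ replicate 4.

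The listed genes of fat cells overlapped between the groups. Slc27a1, which fat cells also make and which separated, was not on that list. None of the 20 adipocyte genes separated the groups, 9 had a positive difference, the median was -0.03, and their sum was 51922 to 93109 CPM in the Epcam-high and 35494 to 114755 CPM in the Epcam-low libraries. Adipoq, the fat cell hormone adiponectin, was 1473 to 2373 against 1262 to 3262 CPM. Lep, which has 1 ob copy in Lepob/+ and SOD1-G93A Lepob/+ mice, was 202 to 691 against 307 to 1840 CPM. Fibroblast genes (median 0.12), Schwann cell genes (-0.17) and cell cycle genes (0.17) showed no separated member, and all 13 macrophage genes had a positive difference (median 0.44) without any that separated.

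Other tissues in the pieces moved unevenly between the groups, and their part in the gene counts was not tested. All 10 measured lymph node genes had a positive difference (median 1.39), as did 15 of 16 T and B cell genes (median 1.17), yet none of either list separated. Their sums ran from 14.0 to 526 CPM in the Epcam-high and from 8.19 to 869 CPM in the Epcam-low libraries for the lymph node, and from 207 to 1796 and from 314 to 3713 CPM for T and B cells. All 12 muscle genes had a negative difference (median -4.47), with sums of 17.4 to 227 against 12.7 to 232906 CPM. Of 8 genes of Langerhans and migratory dendritic cells none separated (median 0.39), and Cd207, the defining marker of Langerhans cells, which also make Epcam, was at most 0.557 CPM in the Epcam-high libraries.

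The genotypes were compared over all 16 libraries, without use of the split, to ask whether epithelial genes followed genotype. Epcam averaged 84.8 ± 25.5 CPM in WT, 80.3 ± 10.6 in Lepob/+, 74.0 ± 17.2 in SOD1-G93A and 121 ± 44.8 in SOD1-G93A Lepob/+ mice (SD, n = 4 each), and these ranges overlapped. The SOD1-G93A Lepob/+ range overlapped the others only through replicate 3, the library with Y-linked counts, at 58.5 CPM. Replicates 1, 2 and 4 of that genotype were at 123, 136 and 165 CPM, against at most 107 CPM in the other genotypes. With edgeR's quasi-likelihood test, the log2 fold change was -0.08 (SE 0.28) in Lepob/+ against WT, -0.20 (SE 0.28) in SOD1-G93A against WT and 0.70 (SE 0.29) in SOD1-G93A Lepob/+ against SOD1-G93A, with Benjamini-Hochberg adjusted p = 1.00, 0.998 and 0.264. Without SOD1-G93A Lepob/+ replicate 3 the last fold change was 0.93, with an adjusted p of 0.379 in the same test. Over all 16 libraries, none of the 121 epithelial genes, and 0 of all genes (0%), passed an adjusted p of 0.05 in any of these comparisons. At an unadjusted p below 0.05 there were 4 of the 121 in Lepob/+ against WT (3.31%, against 4.37% of all genes), 4 in SOD1-G93A against WT (3.31%, against 2.56%) and 29 in SOD1-G93A Lepob/+ against SOD1-G93A. In the last comparison 22 of the 29 were higher and 7 lower in SOD1-G93A Lepob/+, the share of 24.0% stood beside 16.5% of all genes, and 89 of the 121 had a positive fold change (median 0.43). Of the 4 libraries each, 3 of SOD1-G93A and 0 of SOD1-G93A Lepob/+ were rich in lymph node transcripts, and the part of this in the result was not tested.

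DESeq2, fitted on 2 genotypes at a time, called 1 epithelial gene in Lepob/+ against WT (background 0.0174% of all genes), 0 in SOD1-G93A against WT (background 0.062%) and 10 of 121 in SOD1-G93A Lepob/+ against SOD1-G93A (8.26%, against 8.11% of all genes). The first was Aqp5, which averaged 18.9 ± 2.29 CPM over the Lepob/+ libraries and 56.6 ± 20.6 CPM over the WT libraries (SD, n = 4). Of the 10, 5 were higher and 5 lower in SOD1-G93A Lepob/+, and they were Btn1a1, Glycam1, Lalba, Kcnn4, Aqp3, Dsc3, Ly6a, Slc34a2, Scnn1b and Atp1b1. In SOD1-G93A replicate 2, rich in lymph node transcripts, Glycam1 was 575 CPM and Dsc3 21.9 CPM. In the other Epcam-low libraries Glycam1 was 0 and Dsc3 at most 0.067 CPM. The part of the uneven lymph node content in these 10 calls was not tested. Epcam, Krt8 and Krt18 were not among the 10.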

How the data were processed

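Total RNA of iWAT was sequenced as paired-end libraries, for which the labels and the paper name different kits. Per the paper's methods, the authors trimmed reads with fastp, aligned them to mm10 and kept uniquely aligned reads. The submitters' processing notes name HISAT2 2.1.0 and featureCounts 2.0.2, and the deposited table holds raw counts per gene for 54752 genes in 16 libraries. Genes were kept by filterByExpr (minimum count 10), which left 19736, and scaled by TMM (edgeR 4.0.16, R 4.3.3). Log2 CPM used a prior count of 1. Libraries were ranked on Epcam CPM of the column total, and a gene was called where the 5 Epcam-high and 5 Epcam-low libraries did not overlap. Such counts have no p-value. For genotypes, a quasi-likelihood fit of edgeR over 16 libraries was the test, and DESeq2 1.42.0 an alternative. P-values measure the spread between libraries, since the labels do not tie each to its own animal. The count of genes that did not overlap and the edgeR fit were tried on simulated data. These had the same spread for every gene and no differences in tissue content between libraries. The other steps were not simulated.

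The libraries, gene lists and tests were chosen with earlier results of these data known. The genes named were Epcam, Krt8, Krt18 and Aqp5, up to 4 members per list with the largest difference, the 15 largest positive and 10 largest negative differences among genes that did not overlap, and list members without counts. Other genes, list members among them, were named after their values were seen. Promoter sequences came from RefSeq and gene positions from GENCODE. Human SOD1 transgene reads were not analysed here, and some genes that the rule names are not reported here.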

Additional observations from a re-analysis of the deposited data

Results flagged for a closer look

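Of 230 groups of 4 or 5 values examined, 50 (21.7%) held a library far from the rest by Dixon's criterion. Chance alone flags about 1 in 20 groups of normally distributed values. The CPM here were not log-transformed and many of the genes were picked for large differences, so that rate need not hold. The genes of 1 tissue share their libraries, so these are not separate events. All values are CPM.

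SOD1-G93A replicate 2 stood apart from the other Epcam-low libraries in genes of the lymph node and of lymphocytes. It held Ccr7 at 126, Ccl22 at 58.0, Ccl17 at 1.08, Cacnb3 at 107, Fcer2a at 172, Madcam1 at 2.64, Ccl21a at 368, Cr2 at 55.0, Cd79a at 343, Lef1 at 89.6, Pax5 at 143 and Glycam1 at 575. It also stood apart in genes of the epithelial and epidermal lists, with Dsc3 at 21.9, Dsg2 at 12.2, Aqp3 at 3.00, Calm4 at 0.407 and Tnfsf11 at 5.13.

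Lepob/+ replicate 4 stood apart from the other Epcam-low libraries in muscle genes, with Pvalb at 7941, Myh4 at 61561, Ckm at 26625, Atp2a1 at 47040, Xirp1 at 190, Ctxn3 at 11.5 and Camk2a at 153, and in Aqp4 at 32.6 and Egf at 54.5. The same library was also the highest of its group in epithelial genes, with Krt8 at 204, Krt19 at 187, Cldn8 at 6.36, Elf5 at 20.8 and Scnn1g at 1.87, and in Fam90a1a at 0.999.

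SOD1-G93A Lepob/+ replicate 4 was far above the other Epcam-high libraries in Krt18 at 470, Krt19 at 571, Cldn8 at 21.9, Lcn2 at 71.1 and Csn3 at 86.7. WT replicate 1 was above them in the basal genes Krt15 at 7.22 and Cdh3 at 6.69. SOD1-G93A Lepob/+ replicate 1 held Pvalb at 4.36, Myh4 at 46.7, Ckm at 16.5 and Atp2a1 at 45.3, and 4921518K17Rik at 0.199, below the others. SOD1-G93A Lepob/+ replicate 2 held D430019H16Rik at 4.00.

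Among the Epcam-low libraries, WT replicate 3 stood apart in Aqp5 at 79.4 and Bglap3 at 15.2, and SOD1-G93A Lepob/+ replicate 3 in Lbp at 356 and Kcne1l at 2.81. Within the SOD1-G93A genotype, replicate 4 held Aqp5 at 74.98 against 10.9 to 15.3 in the other 3.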

How the results depend on the processing

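The count of genes higher in every Epcam-high library, 323, was 513 on CPM of the column total, 153 with 6 libraries against 6, 212 among the libraries poor in lymph node transcripts and, as an alternative chosen after seeing the data, 629 without both muscle-rich libraries. The count of lower genes, 104, was 25 on the column total, 209 with 4 against 4, 45 with 6 against 6, 157 among the libraries poor in lymph node transcripts and 306 without the muscle-rich ones. Leaving out 1 library gave 360 to 707 higher and 138 to 491 lower genes, the highest of each without SOD1-G93A replicate 2. The lower count also passed 1.5 times 104 without SOD1-G93A Lepob/+ replicate 4 (182), 1 (196) or 3 (179), Lepob/+ replicate 4 (169), WT replicate 3 (176) or SOD1-G93A replicate 3 (160). Fewer libraries separate more easily by construction. Counts stayed within 1.5 times under DESeq2 size factors (313 and 126), no filter (346 and 119), a 1 CPM filter (279 and 90) and with WT replicate 4 taking the place of the library with Y-linked counts (300 and 89). The difference was 0.99 to 1.32 in Krt8 and 1.10 to 1.29 in Krt18 with 1 library left out. On the column total, r in the middle libraries changed sign for Krt14 (0.18) and Krt5 (0.11), and the cause was not tested. Epithelial genes called between genotypes numbered 0 to 0 in edgeR with 1 library left out and 0 with a replicate block. Deviations of same-numbered libraries from their genotype means correlated at -0.60 to 0.52 across the 3 comparisons, and in none were all 4 pairs above 0.1, so the numbers were not taken to pair the mice. DESeq2 called 1 in Lepob/+ against WT and 10 in SOD1-G93A Lepob/+ against SOD1-G93A on 2 genotypes at a time, and 4 in the latter on all libraries. Genes below about 1 CPM, among them 47 of the 323, rest on few counts.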
